A study of Mus musculus with 160 samples.

Results

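The Runx transcription factors Runx1, Runx2 and Runx3, their common partner Cbfb, and the repressors Gfi1 and Gfi1b were followed across 8 sorted cell populations of the aorta-gonad-mesonephros (AGM) region, the part of the mouse embryo in which haematopoietic stem cells first arise. The members were chosen by name and found by their Ensembl identifiers, which gave 6 of the 46078 genes in the count table. Embryos were heterozygous for a Gata3-GFP knock-in allele (Gata3-GFP +/-), so that GFP reports expression of the transcription factor Gata3, and both the GFP-positive and the GFP-negative fraction came from embryos with this genotype. At E10.5, endothelial cells (ECs) were sorted as Cdh5+ CD41- CD45- and haematopoietic cells (HCs) by CD41 or CD45. At E11.5, mesenchymal cells (MCs) were sorted by Pdgfrb and sympathetic nervous system cells (SNS) by the neurotrophin receptor p75, which is encoded by Ngfr. Each population was split into a Gata3-GFP+ and a Gata3-GFP- fraction and sequenced as 20 Smart-seq2 pools of 20 cells.

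Of the 160 pools, 7 failed the limits on depth and read quality, which left 19 and 20 pools of ECs with and without GFP, 20 and 20 of HCs, 20 and 17 of MCs, and 18 and 19 of SNS. The passing pools held 1400824 to 16004756 counts on genes, with a median of 3801233. The pools cannot be tied to embryos or to biological replicates by their labels, so p-values measure only the spread between these pools, which may be technical. A pool sums 20 cells, so fewer cells with a transcript and less transcript per cell cannot be told apart. Sorting markers followed the E10.5 labels: Cdh5, the endothelial cadherin, averaged 1071 CPM (counts scaled to the size of the library) in ECs with GFP and 435 CPM in those without it, while Ptprc, which encodes CD45, averaged 203 and 430 CPM in the HC fractions with and without GFP and 5.15 CPM in Gata3-GFP+ ECs. Gata3 itself averaged 78.7 CPM with GFP against 12.2 CPM without it in ECs, and 50.05 against 6.91 CPM in HCs.

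Runx proteins bind DNA through the Runt domain, and the non-DNA-binding subunit Cbfb raises their affinity for it. Runx1 is required for the endothelial-to-haematopoietic transition, in which haemogenic endothelium turns into blood, Runx2 is the master regulator of bone formation, and Runx3 acts in lymphocytes and in proprioceptive sensory neurons. Gfi1 and Gfi1b are zinc-finger repressors of the same family that recruit the histone demethylase Lsd1 (Kdm1a), Rcor proteins and histone deacetylases. They act downstream of Runx1 to switch off the endothelial programme, Gfi1 in haemogenic endothelium and Gfi1b in emerging blood cells, and Gfi1b is also needed to make platelets and red cells.

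The Runx genes each have more than 1 start site, and the RefSeq starts of all 6 members (9 windows of 250 bases before to 50 bases after the start, build GRCm38.p6) were searched for a shared sequence, since Runx factors are known to act on Runx promoters. The longest run present in a window of each Runx gene was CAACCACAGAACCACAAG, 18 bases long. It is given with its flanks, to let the 3 genes be compared base by base, and capitals mark the Runx binding core TGTGGT as read on the other strand, ACCACA, which occurred in a tandem pair in all 3:
Runx1, chr16:92826025-92826054, minus strand: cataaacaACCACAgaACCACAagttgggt
Runx2, chr17:44814583-44814612, minus strand: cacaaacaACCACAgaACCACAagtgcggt
Runx3, chr4:135120503-135120532, plus strand: gtccctcaACCACAgaACCACAaggccagg
The run began 27 bases after the start in Runx1 and 22 bases after it in Runx2, and before the start in Runx3. Among 32851 windows of the same length it was found in 4 (0.0122%), the fourth being that of Gm16225, which lies on the strand opposite Runx3 and overlaps its window. By contrast the core alone, on either strand, was in 16.8% of all windows. The other Runx1 window, the other Runx3 window, both Gfi1 windows, the Gfi1b window and the Cbfb window did not hold the core.

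The Gfi1b promoter is shown because Gata1 was the gene closest to Gfi1b in level across the pools. The 200 bases before its start, with capitals at the only GATA motif (AGATAA or TGATAA, either strand) and the only Gfi core (AAATCA, either strand), were:
Gfi1b, chr2:28621983-28622182, minus strand: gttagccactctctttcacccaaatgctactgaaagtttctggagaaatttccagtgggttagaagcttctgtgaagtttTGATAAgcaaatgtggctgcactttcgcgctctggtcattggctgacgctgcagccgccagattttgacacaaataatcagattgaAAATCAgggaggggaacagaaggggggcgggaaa
Of all 32851 windows 6115 (18.6%) held a GATA motif and 4598 the Gfi core. The Gfi1 windows held neither. A match describes the letters of these windows and is not a measured binding site.

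Across the 8 populations the members fell into different patterns of level. Runx1 was found in every HC pool, Cbfb in every pool of every population, Gfi1 in a share of the EC and HC pools, and Gfi1b and Runx3 almost entirely in HCs, while Runx2 was highest in Gata3-GFP- MCs. A gene was taken as detected in a pool with at least 10 counts. By this measure Runx1 was detected in 66.01% of the passing pools, Runx2 in 35.95%, Gfi1b in 18.95%, Runx3 in 16.99% and Gfi1 in 14.38%.

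**Figure D1:**
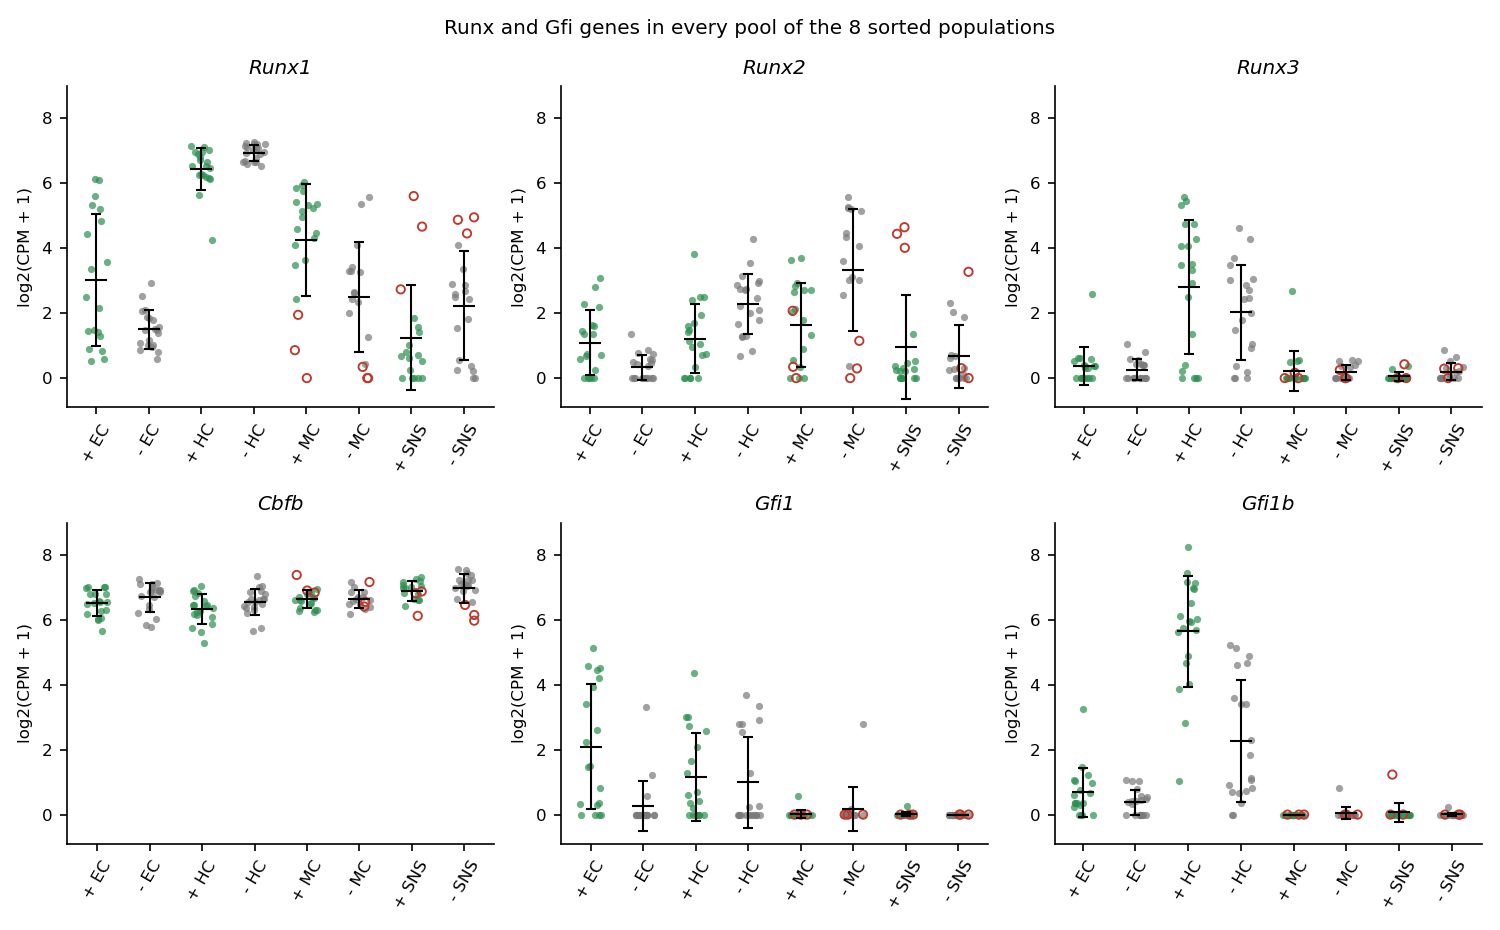
Level of each member in every pool, as log2(CPM + 1), by population; points are single pools (green for Gata3-GFP+, grey for Gata3-GFP-), bars the mean and SD, and red outlines the 12 E11.5 pools whose markers went against their header. Cbfb stayed near the same level in all 8 populations, Gfi1b stood out in Gata3-GFP+ HCs, and Runx1 and Gfi1 spread from 0.45 CPM and 0 CPM to 69.6 CPM and 33.8 CPM among the Gata3-GFP+ EC pools.

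Because transcripts differ in length, levels of different genes were set against each other only as mean CPM per kilobase of exon. On this scale the highest value of any member was 43.4 for Gfi1b in Gata3-GFP+ HCs, above Cbfb, which ranged from 23.9 to 37.5 over the 8 populations. Runx1 reached 10.3 in HCs without GFP and 7.77 in those with it. The remaining peaks were lower, at 2.73 for Runx3 in Gata3-GFP+ HCs, 2.56 for Gfi1 in Gata3-GFP+ ECs and 1.91 for Runx2 in Gata3-GFP- MCs. In Gata3-GFP+ ECs the mean level per kilobase of Gfi1 (2.56) was above that of Runx1 (1.51), a difference that was not tested. Exon length was taken over all annotated exons of a gene, 12025 bases for Runx1 and 3187 for Gfi1. Orders between genes on this scale depend on that choice. Detection at 10 counts went the other way, in 11 of 19 of these pools for Runx1 and 9 of 19 for Gfi1.

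**Figure D2:**
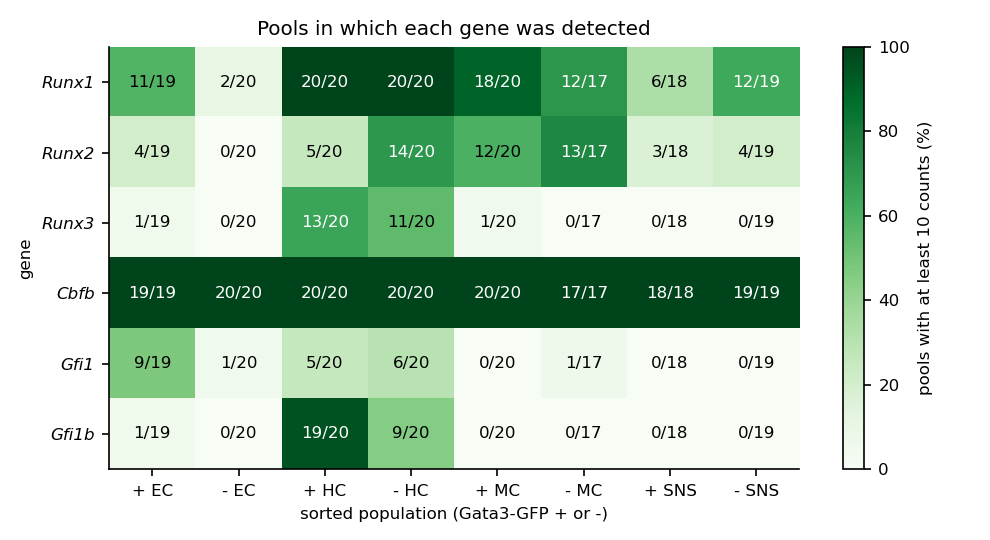
Share of pools with at least 10 counts of each member (rows) in each population (columns), printed in each cell as pools with the gene over pools passing. Detection of Gfi1b ran from 19 of 20 Gata3-GFP+ HC pools to 0 of 20 Gata3-GFP+ MC pools, and that of Runx1 from 20 of 20 pools in both HC populations to 2 of 20 in Gata3-GFP- ECs.

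Runx1 (ENSMUSG00000022952, mm10 chr16:92601466-92826149, minus strand) is the factor on which the emergence of blood from endothelium depends. Gata3-GFP+ ECs had a lowest, median and highest pool value of 0.45, 4.63 and 69.6 CPM, and Gata3-GFP- ECs of 0.52, 1.77 and 6.56 CPM. The ranges of the 2 EC populations overlapped at the low end, and the excess lay in a share of the Gata3-GFP+ pools: Runx1 was detected in 11 of 19 (57.9%, exact 95% interval 33.5 to 79.7%) and in 2 of 20 Gata3-GFP- pools. Such intervals cover only the sampling of pools with the gene detected or not, with pools taken as independent. They do not cover error in the counts of a pool, in which reads were not tagged by molecule. The mean was 18.1 ± 23.1 CPM (SD, n = 19) against 2.10 ± 1.49 CPM (n = 20), and Runx1 was upregulated 8.41-fold in Gata3-GFP+ ECs (log2 fold change 3.07, standard error 0.56, adjusted p = 1.25e-05 in the quasi-likelihood test of edgeR, adjusted after Benjamini and Hochberg). With scanpy's t-test on scran-normalized values in place of edgeR, the difference was 1.77 and missed the threshold (adjusted p = 0.0212). Of the exon bases of Runx1 0.88% lie opposite Gm26626, and whether counting used strand is not given in the sources used here.

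In HCs Runx1 was high in both fractions. The lowest, median and highest pools were at 18.3, 91.6 and 141.8 CPM in the Gata3-GFP+ fraction and at 91.7, 127.3 and 152.4 CPM in the Gata3-GFP- fraction. The GFP-negative pools formed a narrow band, whereas Gata3-GFP+ pools reached far below it. The difference of -0.41 (standard error 0.13) did not pass the threshold (adjusted p = 0.0137, edgeR), although it did pass without the filter on low counts (adjusted p = 0.00993) and with scanpy's t-test on scran-normalized values (-0.54, adjusted p = 0.00951).

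Gfi1 (ENSMUSG00000029275, mm10 chr5:107716657-107726036, minus strand) encodes the repressor that acts in haemogenic endothelium. Gata3-GFP+ ECs had a lowest, median and highest pool value of 0, 1.80 and 33.8 CPM, and Gata3-GFP- ECs of 0, 0 and 8.86 CPM. In Gata3-GFP- ECs 17 of 20 pools had no count of Gfi1 and 1 pool reached 10 counts, while among Gata3-GFP+ ECs 9 of 19 reached 10 counts and 4 had none. Gfi1 was upregulated 16.5-fold in Gata3-GFP+ ECs (log2 fold change 4.05, standard error 0.90, adjusted p = 2.32e-04, edgeR). The Gata3-GFP- mean was 0.53 CPM, so this fold is set against a level near 0. Of its exon bases 3.17% lie opposite A430072P03Rik.

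In the EC comparison 3 of the 6 members had enough counts to be tested, and 2 of these, Runx1 and Gfi1, passed, both upward. Both met the limit on counts through the Gata3-GFP+ pools, since 2 and 1 of 20 Gata3-GFP- pools reached 10 counts. Their shared direction is therefore not independent of the filter. Over all 15073 genes tested 19.5% passed upward and 16.5% downward. The third, Cbfb, was at -0.24 (standard error 0.13, adjusted p = 0.12, edgeR). Scaling by the added ERCC RNAs in place of TMM moved the median of all genes from 0.10 to -0.60 in this comparison, and the share of passing genes that were higher in Gata3-GFP+ ECs from 54.1 to 14.3%. On that scale Runx1 was at 2.26 and Gfi1 at 3.65, both still past the threshold, and Cbfb passed it downward at -0.86.

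Runx2, Runx3 and Gfi1b were too low in ECs for a test. In the EC fractions with and without GFP, Runx2 reached 10 counts in 4 of 19 and 0 of 20 pools, Gfi1b in 1 of 19 and 0 of 20, and Runx3 in 1 of 19 and 0 of 20. The highest Runx2 value (7.53 CPM) and the highest Runx3 value (5.02 CPM) came from the same Gata3-GFP+ EC pool, which was also the pool with the most Runx1 (69.6 CPM) and had no count of Gfi1. The pool with the most Gfi1b (8.63 CPM) had 47.5 CPM of Runx1 and 22.1 CPM of Gfi1.

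Markers of other cell types were read beside the EC result. The summed level of 10 pan-haematopoietic markers ran from 174 to 484 CPM (median 276) in Gata3-GFP+ ECs, from 44.6 to 135.6 CPM (median 93.8) in Gata3-GFP- ECs and from 1763 to 3945 CPM (median 2641) in Gata3-GFP+ HCs. Of these 10 markers 5 passed upward in Gata3-GFP+ ECs and 0 downward (median 1.42), and the part of blood cells in the EC result was not tested. Among the 5 that did not pass were the genes used to gate HCs out: Itga2b, which encodes CD41, averaged 4.32 CPM in Gata3-GFP+ and 4.26 CPM in Gata3-GFP- ECs, and Ptprc averaged 5.15 and 4.50 CPM. Of the macrophage and myeloid markers, 11 could be tested between the EC fractions and 0 passed (all of these counts are by the same edgeR threshold). Mesenchymal markers passed upward in 7 of 7 tested, with summed levels of 26.1 to 1592 CPM (median 94.5) in Gata3-GFP+ and 3.9 to 72.2 CPM (median 16.2) in Gata3-GFP- EC pools, and their part in the EC result was not tested. Of the sympathetic markers 3 of 3 tested passed upward, among them Gata3 itself, where 19.5% of all genes passed upward. Their summed levels were 339 to 832 CPM (median 458) in Gata3-GFP+ and 23.2 to 150.3 CPM (median 60.5) in Gata3-GFP- EC pools. This sum holds Gata3, by which the fractions were sorted, so its ranges are not independent of the sort. Only 2 of its 8 genes had a median of 10 or more counts in Gata3-GFP+ ECs. The part of sympathetic cells was not tested either.

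**Figure D3:**
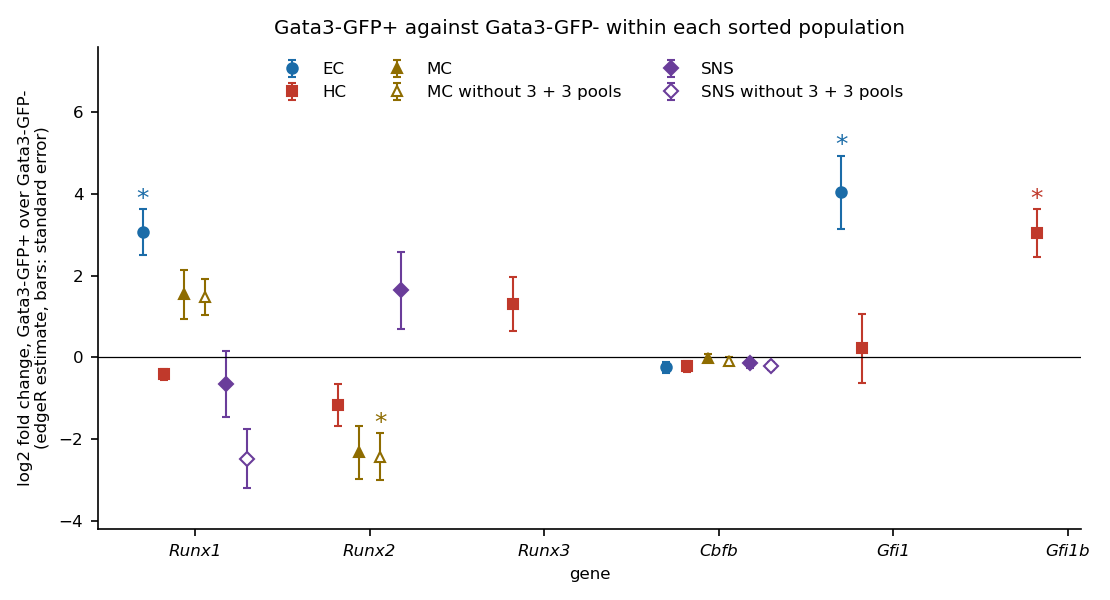
Log2 fold change (with standard error) of each member with GFP against without it, by cell type; filled symbols use all passing pools, open symbols leave out the 12 E11.5 pools with markers against their header, and asterisks mark values past the threshold. Runx1 and Gfi1 lay above 0 in ECs, Gfi1b in HCs, and Runx2 below 0 in MCs.

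Gfi1b (ENSMUSG00000026815, mm10 chr2:28609450-28621982, minus strand) is the repressor of emerging blood cells and of the megakaryocyte and erythroid lineages. Gata3-GFP+ HCs had a lowest, median and highest pool value of 1.05, 60.97 and 301 CPM, and Gata3-GFP- HCs of 0, 1.85 and 36.5 CPM. The 2 distributions overlapped, since 9 of 20 Gata3-GFP- pools also reached 10 counts, against 19 of 20 Gata3-GFP+ pools. Gfi1b was upregulated 8.25-fold in Gata3-GFP+ HCs (log2 fold change 3.04, standard error 0.59, adjusted p = 6.05e-05, edgeR).

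Of the 6 members tested between the HC fractions, Gfi1b was the only one past the threshold, while 26.6% of all 16200 genes tested passed in either direction and 17.1% upward. Gfi1, the other repressor, was low in both: its lowest, median and highest pools were at 0, 0.43 and 19.5 CPM in Gata3-GFP+ and 0, 0 and 11.8 CPM in Gata3-GFP- HCs, with 5 and 6 of 20 pools at 10 counts or more. Its difference of 0.22 had a 95% interval of -1.45 to 1.89, wide enough to hold a 2-fold change either way.

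Runx3 (ENSMUSG00000070691, mm10 chr4:135120652-135177990, plus strand) had a lowest, median and highest pool value of 0, 9.58 and 46.7 CPM in the Gata3-GFP+ and of 0, 3.71 and 23.7 CPM in the Gata3-GFP- fraction of HCs. It was detected in 13 and 11 of 20 pools, and in each fraction some pools had none of it (4 and 3 pools). The difference between the fractions was 1.31 (standard error 0.66, adjusted p = 0.12, edgeR).

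Runx2 (ENSMUSG00000039153, mm10 chr17:44495987-44814797, minus strand) was, like Runx1, at a higher mean in the GFP-negative fraction of HCs; 5.87% of its exon bases lie opposite Runx2os1. Its lowest, median and highest pools were at 0, 1.14 and 13.2 CPM in the Gata3-GFP+ fraction and at 0.60, 4.11 and 18.7 CPM in the Gata3-GFP- fraction, where it was detected in 14 of 20 pools against 5 of 20. The difference of -1.16 (standard error 0.51) missed the threshold (adjusted p = 0.0711, edgeR), and passed with scanpy's t-test on scran-normalized values (-1.91, adjusted p = 0.00436). Of the Gata3-GFP+ HC pools, 5 of 20 held more than 10 CPM (before TMM scaling) of Sox10, a neural crest transcription factor, and the highest value in Gata3-GFP- HC pools was 0.747 CPM. Without these 5 pools, an alternative chosen after seeing the data, Runx2 was at -1.91 and passed (adjusted p = 0.00309), Runx3 was at 1.52 (adjusted p = 0.0809) and Gfi1b was at 3.14 (adjusted p = 1.46e-04).

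The HC fractions differed in lineage markers as well as in Gata3. All 9 megakaryocyte markers passed upward in Gata3-GFP+ HCs (median log2 fold change 4.51, against 0.05 over all genes), and their summed level ran from 1709 to 63565 CPM (median 10789.7) in Gata3-GFP+ and from 142.5 to 4072 CPM (median 602) in Gata3-GFP- pools. All 7 granulocyte markers tested passed downward (median -6.91), with sums of 7.8 to 379 CPM in Gata3-GFP+ and 66.4 to 30179 CPM in Gata3-GFP- pools. Over all 16200 genes tested 17.1% passed upward and 1544 genes downward. Sympathetic (7 of 7 tested) and mesenchymal (9 of 10) markers passed upward in Gata3-GFP+ HCs, and 5 of 5 and 8 of 10 did without the 5 pools with Sox10. Without those pools 2104 of 15511 genes passed upward. The sympathetic markers include Gata3, by which the fractions were sorted. The part of these cells in the member differences was not tested.

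From ECs to HCs several members rose and none fell past the threshold. In the Gata3-GFP+ fraction Runx1 was upregulated 5.05-fold in HCs over ECs (log2 fold change 2.33, standard error 0.36, adjusted p = 3.71e-08), Runx3 28.3-fold (4.82, standard error 0.74, adjusted p = 4.76e-08) and Gfi1b 75.6-fold (6.24, standard error 0.64, adjusted p = 7.24e-14; all by edgeR). Runx3 and Gfi1b entered this fit through their counts in HCs. Their folds are set against Gata3-GFP+ EC means of 0.46 and 0.95 CPM, each with 1 of 19 pools at 10 counts. Gfi1 was at -1.63 (standard error 0.83, 95% interval -3.26 to 0.00) and did not pass (adjusted p = 0.0916). Runx2 (0.32) and Cbfb (-0.18) did not pass either, so 3 of 6 members passed, all upward, where 43.3% of 17851 genes passed in either direction and 24.7% upward. ERCC scaling moved the median of all genes here from 0.09 to 0.81 and the share of passing genes that were higher in HCs from 57.1 to 85.6%. On that scale Runx1 (3.24), Runx3 (5.77) and Gfi1b (7.02) still passed, and Cbfb turned to 0.44 without passing.

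In the Gata3-GFP- fraction 4 of 6 members passed, all upward in HCs, against 38.3% of all genes in either direction and 18.2% upward. Runx1 was 57.4-fold higher (log2 fold change 5.84, standard error 0.43), Gfi1b 25.3-fold (4.66, standard error 0.69), Runx3 21.9-fold (4.45, standard error 0.77) and Runx2 13.6-fold (3.77, standard error 0.63; the largest adjusted p among them was 6.95e-07, edgeR). Gfi1b, Runx3 and Runx2 entered through HCs, with 0 of 20 Gata3-GFP- EC pools at 10 counts. Their EC means were 0.35, 0.22 and 0.31 CPM, so these folds are set against levels near 0. Gfi1 was at 2.21 (standard error 0.93, adjusted p = 0.0433), above 0 here and below 0 in the Gata3-GFP+ fraction.

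The test of whether the GFP difference itself differed between HCs and ECs passed for 2 of 6 members, where 22.7% of all genes passed. For Runx1 the GFP difference in HCs was lower than that in ECs (log2 difference, HC minus EC, -3.51, standard error 0.53, adjusted p = 1.17e-07, edgeR), since Runx1 rose with GFP in ECs and was at -0.41 in HCs. For Runx2 it was -3.45 (standard error 0.82, adjusted p = 5.36e-04, edgeR): mean levels were 1.71 ± 2.15 CPM (SD, n = 19) with GFP and 0.31 ± 0.40 CPM (n = 20) without it in ECs, and 2.11 ± 3.04 CPM (n = 20) and 4.94 ± 4.196 CPM (n = 20) in the HC fractions. Runx2 entered this fit through its counts in HCs, so the EC part of its value rests on levels too low to be tested between the EC fractions alone. Gfi1 came close at -3.84 (standard error 1.25, adjusted p = 0.0122). For Gfi1b, upregulated with GFP in HCs and barely detected in ECs, the same test gave 1.58 and did not pass (adjusted p = 0.27).

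Cbfb (ENSMUSG00000031885, mm10 chr8:105170674-105217989, plus strand), the partner that all 3 Runx proteins need, was detected in every passing pool. Its population means lay between 83.2 ± 25.02 CPM in Gata3-GFP+ HCs (SD, n = 20) and 130.4 ± 36.1 CPM (n = 19) in Gata3-GFP- SNS, and its lowest pool of any population was at 37.7 CPM. Where Runx1 differed 57.4-fold between Gata3-GFP- HCs and ECs, Cbfb differed by -0.20 (standard error 0.13, 95% interval -0.46 to 0.06). None of the neighbours in its order of levels, from Gata3-GFP- SNS down to Gata3-GFP+ HCs, differed past the threshold in 1 fit of all 8 populations.

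Before the E11.5 comparisons, the labels of those pools were read against their sorting genes. In 12 of the 74 passing E11.5 pools the markers went against the column header, namely the last 3 columns under each of the 4 E11.5 headers. The 3 such pools headed Gata3-GFP+ MC had 1.09 to 12.4 CPM of Pdgfrb and 290.7 to 324 CPM of Ngfr, the gene of p75, while the other 17 had 167 to 292 CPM of Pdgfrb and 0.10 to 11.3 CPM of Ngfr. The 3 headed Gata3-GFP+ SNS had 116.6 to 130.98 CPM of Pdgfrb and 0.90 to 7.22 CPM of Ngfr. The other 15 had 0 to 3.55 CPM of Pdgfrb and 45.9 to 153.4 CPM of Ngfr. Gata3 went against the GFP label in part of these pools. Those headed Gata3-GFP- MC had 122.7 to 395.2 CPM of Gata3, and the other 14 had 2.52 to 19.04 CPM. Those headed Gata3-GFP+ SNS had 9.97 to 24.3 CPM, and the other 15 had 111.2 to 305.9 CPM. Their GFP label was therefore in question as well as their cell type. Under the Gata3-GFP+ MC and Gata3-GFP- SNS headers the Gata3 ranges overlapped. No pool was moved to another group, so E11.5 values below are for pools as labelled, and the member differences are given again without these 12 pools, an alternative chosen after seeing the data.

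**Figure D4:**
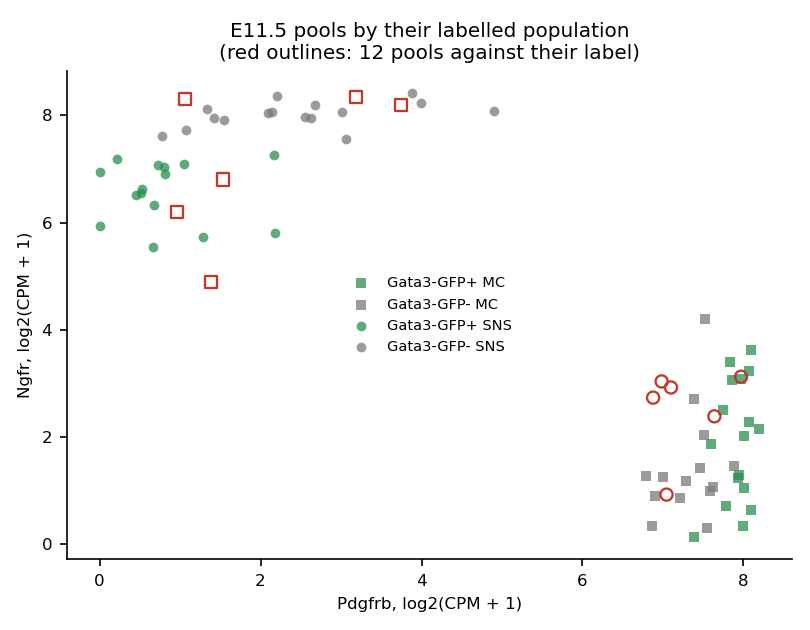
Pdgfrb against Ngfr in the E11.5 pools, in log2(CPM + 1), coloured by the population named in the header; outlined points are the 12 pools whose markers went against it. The 3 outlined pools of each MC header lie with the SNS pools at high Ngfr, and the 3 of each SNS header with the MC pools at high Pdgfrb.

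Among the mesenchymal pools the median of Runx1 was higher in the GFP-positive fraction and that of Runx2 in the GFP-negative fraction. Runx1 had a lowest, median and highest pool value of 0, 26.7 and 64.3 CPM in pools labelled Gata3-GFP+ MC, and of 0, 5.15 and 47.3 CPM in those labelled Gata3-GFP- MC. Runx2 had 0, 2.80 and 12.1 CPM in the pools labelled Gata3-GFP+ MC and 0, 11.1 and 46.5 CPM in those labelled Gata3-GFP- MC. Without the pools against their header no Gata3-GFP+ MC pool was below 4.44 CPM of Runx1 and Runx1 was detected in 17 of 17, while Runx2 was detected in 13 of 14 Gata3-GFP- MC pools.

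With all pools, 0 of the 3 members tested passed between the MC fractions, where 4.36% of 16026 genes did. Runx2 was at -2.32 (standard error 0.66, adjusted p = 0.0182, edgeR) and passed with DESeq2's Wald test (-2.31). Without the pools against their header Runx2 passed at -2.43 (standard error 0.57, adjusted p = 0.00234), 5.399-fold lower in Gata3-GFP+ MCs, where 10.4% of all genes passed. Runx1 was at 1.54 (adjusted p = 0.0953) with all pools and 1.49 (standard error 0.44, adjusted p = 0.0151) without them, and so did not pass in either.

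Blood markers were read beside Runx1 in the MC pools as well. In the pools labelled Gata3-GFP+ MC the summed level of the 10 pan-haematopoietic markers was at most 26.1 CPM (median 3.6), or 9.21 CPM without the pools against their header. Ptprc averaged 0.0262 CPM and the myeloid factor Spi1 0.18 CPM in these pools (0.0238 and 0.21 CPM without the pools against their header). In 20 of these 20 pools Gfi1b had no count, which allows a share of pools with a count of up to 15%. Gfi1 reached 10 counts in 0 of 20 pools labelled Gata3-GFP+ MC and in 1 of 17 labelled Gata3-GFP- MC (5.91 CPM), or in 0 of 17 and 1 of 14 without the pools against their header.

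Sympathetic pools held little of any member but Cbfb. Runx1 had a lowest, median and highest pool value of 0, 0.62 and 47.8 CPM in pools labelled Gata3-GFP+ SNS, and of 0, 4.71 and 29.97 CPM in those labelled Gata3-GFP- SNS. The high ends came from the pools against their header: without them the highest values were 2.62 and 16.2 CPM. Between the SNS fractions 0 of the 3 members tested passed, where 3.87% of 16143 genes did (10.4% without the pools against their header), and Runx1 moved from -0.64 (adjusted p = 0.711) to -2.48 (adjusted p = 0.0137, edgeR) once they were left out.

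Runx3, known from proprioceptive neurons, stayed under 10 counts in all 18 Gata3-GFP+ and 19 Gata3-GFP- SNS pools, although 3 and 10 of them had at least 1 count, and its mean was 0.05 and 0.17 CPM. Gfi1 had no count in any of the 19 Gata3-GFP- SNS pools, which allows a share of pools with a count of up to 15.8%. These 2 genes and Gfi1b were too low for a test at E11.5.

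Between the E11.5 cell types 1 of 3 members passed in each GFP fraction with all pools. Runx1 was lower in pools labelled Gata3-GFP+ SNS than in Gata3-GFP+ MC (-2.57, standard error 0.73, adjusted p = 0.00398, edgeR), where 24.5% of all genes passed. Runx2 was lower in Gata3-GFP- SNS than in Gata3-GFP- MC (-3.91, standard error 0.87, adjusted p = 0.00116), where 5.75% passed. Without the pools against their header all 3 members passed in the Gata3-GFP+ fraction (Runx1 -5.51, Runx2 -3.85, Cbfb 0.36), against 18.9% of all genes upward and 18.1% downward, and Runx2 (-4.74) and Cbfb (0.48) in the Gata3-GFP- fraction, against 22.2%. By ERCC scaling, which moved the median of all genes from -0.01 to 0.67 in the Gata3-GFP+ fraction, Cbfb passed with all pools at 0.94.

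The test of whether the GFP difference differed between SNS and MC turned on these pools as well. With all pools it passed for Runx2 (SNS minus MC 3.94, standard error 1.14, adjusted p = 0.00943, edgeR), where 9.66% of all genes passed, and not for Runx1 (-2.20, adjusted p = 0.128). Without the pools against their header it passed for Runx1 (-3.96, adjusted p = 1.37e-04) and not for Runx2 (0.89, adjusted p = 0.67), where 10.4% passed. The 3 pools headed Gata3-GFP+ SNS in question had 15.2 to 24.1 CPM of Runx2, against 0 to 1.58 CPM in the other 15.

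The order of mean log2(CPM + 1) over all populations, with neighbours compared in 1 edgeR fit of the 8 populations, placed Runx1 highest in Gata3-GFP- HCs, then Gata3-GFP+ HCs, Gata3-GFP+ MCs, Gata3-GFP+ ECs, Gata3-GFP- MCs, Gata3-GFP- SNS, Gata3-GFP- ECs and Gata3-GFP+ SNS. Of these 7 steps only that from Gata3-GFP+ HCs to Gata3-GFP+ MCs (adjusted p = 0.00246) and that from Gata3-GFP- SNS to Gata3-GFP- ECs (adjusted p = 0.00604) were past the threshold. Without the pools against their header the latter missed it (adjusted p = 0.0887) and the step from Gata3-GFP- MCs to Gata3-GFP- SNS passed (adjusted p = 0.00698). Gfi1b went from Gata3-GFP+ HCs to Gata3-GFP- HCs to Gata3-GFP+ ECs with both steps past it, and Runx3 from Gata3-GFP+ HCs to Gata3-GFP- HCs to Gata3-GFP+ ECs with only the second past it. Gfi1 was highest in Gata3-GFP+ ECs, followed by Gata3-GFP+ HCs and Gata3-GFP- HCs, and Runx2 in Gata3-GFP- MCs, followed by Gata3-GFP- HCs, with no step past the threshold in either. Of the 28 pairs of populations, Runx1 and Gfi1b differed in 19 each, Gfi1 in 17, Runx3 in 13, Runx2 in 9 and Cbfb in 5 (17 and 10 for the last 2 genes without the pools against their header), while in the median pair 37.6% of 20080 genes differed (38.2% without the pools against their header).

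Whether the members were found in the same pools was asked first in Gata3-GFP+ ECs. Of the 19 pools 7 held both Runx1 and Gfi1 at 10 counts or more, 4 only Runx1, 2 only Gfi1 and 6 neither. At this limit 0 pools held both Runx2 and Gfi1, 4 only Runx2, 9 only Gfi1 and 6 neither, while at least 1 count was found in 14 pools for Runx2 and in 15 for Gfi1. Over the 19 pools log2(CPM + 1) of Runx1 and Gfi1 had a Pearson r of 0.36 (Spearman rho 0.33) and that of Runx2 and Gfi1 an r of -0.44. The points are pools that share a sort and differ in depth, and with few counts such values describe these pools only.

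**Figure D5:**
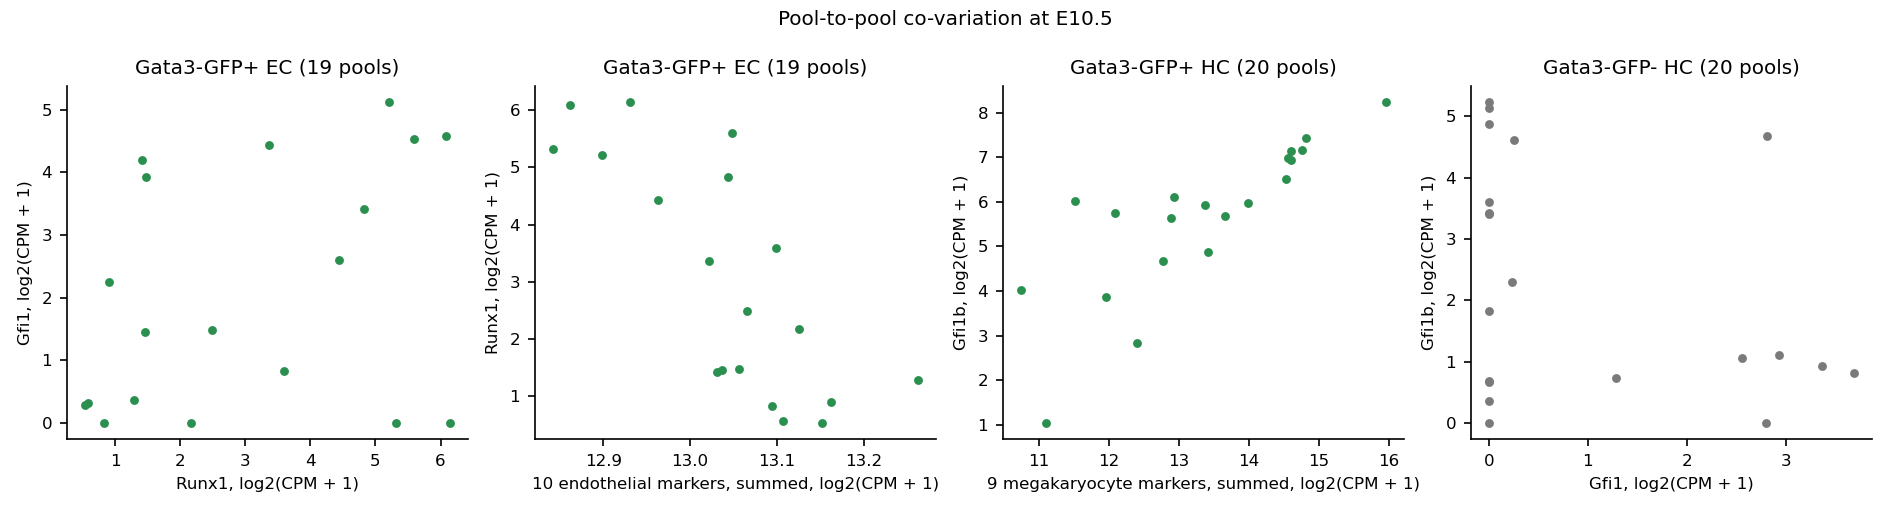
Pool-by-pool levels as log2(CPM + 1): Runx1 against Gfi1 and against the summed endothelial markers in Gata3-GFP+ EC pools, Gfi1b against the summed megakaryocyte markers in Gata3-GFP+ HC pools, and Gfi1 against Gfi1b in Gata3-GFP- HC pools. Each point is a pool; the values of r for the 4 panels were 0.36, -0.77, 0.81 and -0.34.

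The sum of 10 endothelial markers was lower in Gata3-GFP+ EC pools with more Runx1 (r = -0.77, rho = -0.75, and r = -0.70 without the 2 pools farthest from the median of Runx1, n = 19 pools). The same pools had an r of 0.29 between Runx1 and the pan-haematopoietic sum, which was 0.08 without those 2 pools. Runx1 had an r of 0.45 with the macrophage and myeloid sum (0.29 without those 2 pools). It had 0.45 with the mast cell and basophil sum (0.43), while the erythroid (-0.20) and lymphoid (-0.08) sums were below 0. Of the 10 mast cell and basophil genes, which include Kit and Gata2, 5 had no count in any of these pools. Only 2 had a median of 10 or more counts, so that sum rests on few of its genes and does not stand for mast cells or basophils. The endothelial value was the largest in size among the 11 marker sets. Gfi1 had an r of -0.51 with the mesenchymal sum (rho = -0.60). All endothelial sums of Gata3-GFP+ EC pools lay between 7340 and 9825 CPM, far above the 153.7 to 738 CPM of Gata3-GFP+ HC pools.

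A fit of every gene on the level of Runx1 across the 19 Gata3-GFP+ EC pools called 0 of 13838 genes (0%, with 641 at an unadjusted p under 0.05), and no member was among the calls of the fit on Gfi1, which called 1 gene (0.00723%), the cilium gene Cfap74 (slope -1.67, adjusted p = 0.00365, edgeR), and 0 without the 2 pools farthest from the median of Gfi1 or with a pseudocount of 0.1. With Runx1 the slope of Gfi1 was 0.45 (standard error 0.27, adjusted p = 0.9997). No co-variation of the members passed the threshold in these 19 pools, which does not show that there was none.

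In Gata3-GFP+ HC pools Runx1 was everywhere, so 19 of 20 pools held it together with Gfi1b, and the remaining pool had 1.05 CPM of Gfi1b beside 103.9 CPM of Runx1. All 5 pools with Gfi1 also held Gfi1b, which was itself in 19 of 20 pools, while 14 pools held only Gfi1b and 1 neither. Runx3 and Gfi1b were together in 12 pools, Runx3 alone in 1 and Gfi1b alone in 7. The 5 pools with Runx2 all held Runx3 as well.

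Gfi1b was detected in 9 of 20 Gata3-GFP- HC pools, against 19 of 20 with GFP. Of the Gata3-GFP- pools 1 held both Gfi1 and Gfi1b, 5 only Gfi1, 8 only Gfi1b and 6 neither (r = -0.34, rho = -0.18, n = 20). Overlap cannot be compared between the HC fractions apart from this difference in Gfi1b detection. In the Gata3-GFP- pools Gfi1 went with the granulocyte marker sum (r = 0.66, rho = 0.72, and 0.65 without 2 pools) and with Runx2 (r = 0.53, rho = 0.57), and Gfi1b went with the megakaryocyte sum (r = 0.50).

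In Gata3-GFP+ HCs fits were made on Runx1, Gfi1 and Gfi1b, and among these Gfi1b had the most genes called. No such fit was made on Runx2, Runx3 or Cbfb. The fit of every gene on Gfi1b called 320 of 14498 genes (2.21%), 282 rising with it and 38 falling, and 66 without the 2 pools farthest from the median of Gfi1b. Among the 320 were Itga2b, the integrin chain of platelets and CD41 (slope 0.82, standard error 0.13, adjusted p = 3.10e-04, edgeR; 0.0103 without those 2 pools), and Rgs18, a platelet regulator of G-protein signalling (slope 0.80). Of the 9 megakaryocyte markers 8 rose with Gfi1b, with a median slope of 0.90 against 0.002 over all genes, and the summed markers had an r of 0.81 with it (rho = 0.86, n = 20).

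No other member passed the threshold in the fit on Gfi1b: the slope was 0.03 for Runx1 (standard error 0.07, adjusted p = 0.92), 0.52 for Gfi1 (standard error 0.37, adjusted p = 0.58) and -0.14 for Cbfb (standard error 0.05, adjusted p = 0.15, edgeR). Cbfb had an r of -0.54 with Gfi1b, which was -0.37 without 2 pools. The macrophage and myeloid sum had an r of -0.63 with Gfi1b, and the endothelial sum an r of 0.73 (rho = 0.74, and 0.73 without 2 pools). The fit on Runx1 called 1 of 14498 genes (0.00690%), Bex3 (slope -0.51, adjusted p = 1.38e-04, edgeR), and 0 without the 5 pools with Sox10 (1011 at an unadjusted p under 0.05), and that on Gfi1 called 0 (0%, with 525 at an unadjusted p under 0.05). Runx3 had an r of 0.67 with the sum of the lymphoid markers (rho = 0.66, and 0.65 without 2 pools), and Runx1 an r of -0.72 with the sympathetic sum, which was -0.50 without 2 pools. The sympathetic sum includes Gata3.

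Over all passing pools and 19988 genes, the genes most like each member in log2(CPM + 1) were found by Pearson r, a description over pools that share their populations. Gfi1b was closest to Gata1 (0.94), the erythroid and megakaryocyte GATA factor, and to Treml1 (0.94), a platelet receptor. Runx1 was closest to Lgals9 (0.85), Irf5 (0.83) and Prdx5 (0.83), and Runx3 to Itgb7 (0.79), a lymphocyte integrin, Il1r2 (0.78) and Trbc2 (0.78), a T cell receptor constant segment. Runx2 was closest to Col8a2 (0.59) and to Pax1 (0.59), a factor of the sclerotome, and Gfi1 to B4galt1 (0.54), Casp4 (0.53) and Tnfrsf26 (0.53). With the pools against their header left out, Nkx3-2, Pax1 and Adamtsl3 (0.56 each) were closest to Runx2, and Psap (0.83) took the place of Prdx5 for Runx1.

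The cofactors through which Runx and Gfi proteins act were described as lists, to be read against the shares of all genes that passed: 19.5% upward and 16.5% downward between the EC fractions, 17.1% upward and 26.6% in either direction between the HC fractions, and 43.3 and 38.3% in either direction between HCs and ECs with and without GFP. Of 11 corepressors of Gfi1 and Gfi1b, 5 passed upward and 1 downward in Gata3-GFP+ against Gata3-GFP- ECs (median 0.59, against 0.10 over all genes), led by Rcor3 (1.05), Rcor1 (0.84) and the Lsd1-complex member Phf21a (0.83), with the deacetylase gene Hdac1 at -0.25. By ERCC scaling the list's median was -0.07, against -0.60 over all genes, and 0 passed upward. In HCs 5 of 11 passed, all upward (median 0.66 against 0.05), with Rcor2 at 1.82, Hmg20b at 0.82 and Zmym2 at 0.72, and 3 of 11 passed without the 5 pools with Sox10. Between HCs and ECs, 7 passed downward and 0 upward in the Gata3-GFP+ fraction (median -0.75, but -0.08 with 1 upward and 1 downward by ERCC scaling, where all genes had 0.81), and 8 downward and 1 upward in the Gata3-GFP- fraction (median -0.73). At E11.5 0 of 11 passed between the MC fractions by edgeR (2 of them at an unadjusted p under 0.05) and 0 by DESeq2's Wald test, and 0 by edgeR without the pools against their header (1 at an unadjusted p under 0.05).

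Of 17 Runx cofactors tested, 9 passed upward and 0 downward in Gata3-GFP+ ECs (median 0.56 against 0.10), where 19.5% of all genes passed upward. They included the ETO family genes Runx1t1 (2.77) and Cbfa2t3 (2.04) and the Groucho-type corepressor gene Tle2 (2.37). By ERCC scaling 2 passed upward and 4 downward, with a median of -0.07 against -0.60. In HCs 6 passed upward, against 17.1% of all genes, and 0 downward (median 0.22), with Yap1, the Hippo coactivator, at 2.74, Tle2 at 2.62 and Runx1t1 at 2.61, and 5 upward and 0 downward without the pools with Sox10. In MCs 1 of 17 passed, Cbfa2t3 at 2.66, and 2 of 17 without the pools against their header, where 4.36 and 10.4% of all genes passed.

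Of the known targets of Runx1 in blood, 9 of 11 could be tested in ECs, and 4 of these passed upward with GFP, against 19.5% of all genes, and 0 downward (median 1.26 against 0.10): Spi1, the myeloid factor PU.1, at 2.32, the GM-CSF receptor chain Csf2ra at 1.999 and Nfe2 at 1.69 led them. In HCs 3 of 11 passed upward and 6 downward (median -0.76 against 0.05), where 26.6% of all genes passed in either direction. The rises were the platelet factor Pf4 (3.82), Itga2b (3.68) and Nfe2 (2.01), and the falls included the granule genes Elane (-6.10) and Mpo (-5.00) and the progenitor factor Myb (-1.88). Between HCs and ECs 11 of 11 passed upward in the Gata3-GFP- fraction (median 4.79) and 7 of 11 in the Gata3-GFP+ fraction (median 3.41), against 18.2 and 24.7% of all genes. The list holds Itga2b, which encodes CD41, a marker used to sort HCs and to exclude them from ECs.

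Transcription factors that act with Runx1 in blood formation also passed mostly upward in Gata3-GFP+ ECs, in 12 of 15 tested, against 19.5% of all genes, with 1 downward (median 0.81), or 6 upward and 2 downward by ERCC scaling. Mecom was at 3.08, Meis1 at 2.87 and Gata3, by which the cells were sorted, at 2.66, while Ets1 was at -1.21. In HCs 6 of 16 passed upward, against 17.1% of all genes, and 1 downward (median 0.30), with Gata1 at 2.75 and Hhex at -0.83. The endothelial programme, which Gfi1 and Gfi1b are known to repress, passed upward in 13 of 16 genes and downward in 1 in Gata3-GFP+ ECs (median 0.88), the same fraction in which Gfi1 was upregulated, with Sox17 at 1.73, Tek at 1.60, Tie1 at 1.40 and Emcn at -0.71, but upward in 5 and downward in 3 by ERCC scaling (median 0.11 against -0.60). All 16 of these genes passed downward from ECs to HCs in both GFP fractions, also by ERCC scaling. They include Cdh5, by which ECs were sorted, so its fall follows from the sort.

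Genes of the osteochondral programme, in which Runx2 acts, were tested in the MCs where Runx2 was highest. With all pools 0 of 11 passed by edgeR (2 of them at an unadjusted p under 0.05), and 1, Twist2, passed downward by DESeq2's Wald test. Without the pools against their header 3 of 11 passed downward and 1 upward (median -0.10), with the cartilage collagen gene Col2a1 at -1.63, Twist2 at -1.54, the cartilage factor Sox9 at -1.13 and Col1a1 at 0.71. In ECs 7 of the 15 genes of the list passed the filter on low counts, and of these 5 passed upward with GFP, against 19.5% of all genes, and 0 downward (median of the 7 genes 3.18), among them Twist1 (5.55) and Col2a1 (3.18), in the fraction that also held the mesenchymal markers given above. Of the sensory neuron genes, in whose cells Runx1 and Runx3 act, 1 of 4 tested passed between the MC fractions and 3 of 4 without the pools against their header, all upward with GFP, against 4.36 and 10.4% of all genes in either direction.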

How the data were processed

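Counts per gene were deposited for 160 pools. The study's methods name STAR, Ensembl release 81 and HTSeq for making the counts, and the submitters' processing notes name GSNAP, HTSeq 0.5.3p3 and build mm10. Rows naming no gene held 50.4% of reads and were left out. Pools were grouped by column header, which gives the population and no pool number, and 7 failed the limits on depth (a minimum of 500000 reads), on the share of reads that fell on genes (a minimum of 20%) and on the mitochondrial and ERCC shares (a maximum of 20% each). CPM were computed from these counts after TMM scaling (edgeR 4.0.16, R 4.3.3). A gene entered a fit if 5 or more of the compared pools held 10 or more of its counts. The quasi-likelihood test of edgeR was used, p-values were adjusted after Benjamini and Hochberg over all genes tested, and the threshold was 0.01 for the adjusted p together with an absolute log2 fold change above 0.1. The EC comparison and a fit on the level of 1 gene were tried on simulated counts with independent pools. The gene in that simulated fit had far more counts than Runx1 and Gfi1 in Gata3-GFP+ ECs (medians of 18 and 7). The simulation therefore does not bear on the few genes called with Runx1 and Gfi1. Alternatives used DESeq2 1.42.0, scanpy 1.11.5 with scran 1.30.0, ERCC scaling, other filters and pools left out. The members were named in every comparison, with up to 3 genes of each list in each direction that passed by the largest change and had 10 counts in at least 50% of the higher group's pools, and the 3 genes most like each member by Pearson r of log2(CPM + 1) at 0.5 or more. The members and the 7 lists and 11 marker sets were chosen with earlier results of these data known. Prmt1 and Drgx were not analysed here. Some other genes of the lists are not reported here. Sequences came from RefSeq windows matched by symbol.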

Additional observations from a re-analysis of the deposited data

Results flagged for a closer look

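The GFP difference itself differed between cell types, by the test of that difference, for Runx1 between HCs and ECs (HC minus EC -3.51 on the log2 scale) and for Runx2 between the same cell types (-3.45). Runx2 was too low for a test between the EC fractions alone (10 counts in 4 of 19 and 0 of 20 pools) and entered this fit through HCs, so its value rests on EC levels near 0. Runx2 also differed between SNS and MCs (SNS minus MC 3.94), but that value rested on the pools whose markers went against their header, and without these it was 0.89 and did not pass.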

How the results depend on the processing

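No paired analysis was possible because the column headers carry no pool or replicate number. The 2 alternatives that leave out the 12 E11.5 pools against their header or the 5 Gata3-GFP+ HC pools with Sox10 were chosen after seeing the data. Of 293 member differences recomputed under an alternative, 264 kept their direction and their side of the threshold. A minimum of 8000 detected genes removed no further pool, and in Gata3-GFP+ HCs the fit on Gfi1 could not be run without 2 pools or without the pools with Sox10. The causes of the changes below were not tested.

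Under ERCC scaling, Cbfb passed at -0.86 between the EC fractions and at 0.94 between Gata3-GFP+ SNS and MC, and turned to 0.22 between the SNS fractions, 0.44 between Gata3-GFP+ HCs and ECs and 0.27 for SNS minus MC. Runx2 turned to -0.15 between Gata3-GFP+ SNS and MC and no longer passed for SNS minus MC (3.43), Runx1 turned to 0.0064 between Gata3-GFP- SNS and MC, and the corepressor gene Hdac2 to 0.0596 there. The genes called were 381 for MC, 1013 for SNS and 8585 for Gata3-GFP+ SNS against MC. Higher genes went from 50.7 to 72.4% of calls in MC, from 52 to 83.3% in SNS, from 51.1 to 88.6% and from 54.96 to 81.8% between SNS and MC with and without GFP, and from 62.2 to 90.99% (HC minus EC) and from 53.5 to 76.3% (SNS minus MC) for the differences of differences.

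Without the 12 pools the genes called were 1585 for MC, 1631 for SNS and 3847 for Gata3-GFP- SNS against MC. Runx2 passed between the MC fractions (-2.43), turned to -3.85 between Gata3-GFP+ SNS and MC and no longer passed for SNS minus MC (0.89), Cbfb passed at 0.36 and 0.48 between SNS and MC with and without GFP, Runx1 passed for SNS minus MC (-3.96), and in the order of Runx2 1 step passed where none had. Without the 5 pools with Sox10 Runx2 passed between the HC fractions (-1.91) and turned to -0.40 between Gata3-GFP+ HCs and ECs, and Cbfb turned to -0.0525 for HC minus EC. With all 160 pools Runx3 turned to -0.16 for HC minus EC and Runx2 to -0.0066 between Gata3-GFP+ SNS and MC.

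DESeq2's Wald test called 1052 genes for MC and 1004 for SNS, with Runx2 passing in MC at -2.31, and gave Cbfb -0.0356 for HC minus EC, where DESeq2 size factors gave -0.0357 and 1 fit of all 8 populations -0.011. That fit called 1130 genes for MC, and Gfi1 passed in it for HC minus EC (-3.83). Scanpy's t-test lost Runx1 in ECs (1.77) and passed Runx1 (-0.54) and Runx2 (-1.91) in HCs. Without the filter on low counts Runx1 passed in HCs (-0.44) and Cbfb turned to 0.0158 in MC.

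Detection depended on the count limit. With at least 1 count, with at least 30 counts and after thinning each pool to 1400824 counts, Runx1 was found in 93.46, 52.29 and 53.59% of the passing pools, Runx2 in 75.16, 15.03 and 13.73%, and Gfi1 in 28.76, 8.5 and 9.15%. Runx3 was found in 50.98 and 10.46% of pools at 1 and 30 counts, and Gfi1b in 44.44% at 1 count. In the fits on a member, those without the 2 pools farthest from its median gave Cbfb on Runx1 a slope of -0.0162 in ECs and, in HCs, Runx3 on Runx1 -0.0481 and Runx1 on Gfi1b -0.0238, with 66 genes called on Gfi1b. The fit on Gfi1 in ECs called 0 genes there and with a pseudocount of 0.1. Without the pools with Sox10 the fit on Runx1 called 0 genes, Runx3 had a slope of -0.688 on Runx1, and with at least 10 counts in 2 pools the fit on Runx1 called 2.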
